A study of Mus musculus with 24 samples.

Results

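Solute carriers are the membrane proteins that move small molecules and ions into, out of and within cells. The genes described here are 178 of the 55357 in the deposited count table whose symbol starts with Slc and a number and whose level averaged at least 2 CPM (a gene's counts relative to its library's total) over all 24 libraries. The table holds 379 genes with such a symbol. Of these, 9 were pseudogenes or antisense names and were dropped, and 192 of the remaining 370 fell below the level. The rule itself uses no comparison between treatments, but it was chosen with earlier results of these data known. Moreover, 4 members, Slc18a2, Slc27a3, Slc4a8 and Slc9b2, would fall below the level without their highest group. Just above the threshold stood Slc18a2, Slc9b2 and Slc22a21, with overall means of 2.01, 2.22 and 2.30 CPM. Just below it stood Slc1a4, Slc22a18 and Slc24a5, with 1.98, 1.82 and 1.70 CPM. By the substrate their family is known for, 11 of the 178 were placed with sugars and polyols, 4 with lactate, pyruvate and ketone bodies, 25 with amino acids and peptides, 26 with metals and haem, and 23 with inorganic ions and pH. A further 14 were placed with vitamins, nucleosides and choline, 36 with mitochondrial carriers, 21 with nucleotide sugars and relatives, 6 with lipids and dicarboxylates, and 10 with organic anions, cations and drugs. The last 2, Slc9a3r1 and Slc4a1ap, carry the name without being carriers: the first encodes a scaffold protein that binds a sodium-proton exchanger.

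Most solute carriers either let a substrate run down its gradient or couple it to sodium, protons or a second substrate. Activated macrophages are known to take up more glucose, to release lactate and to import arginine and cystine, while iron and other metals are moved between the phagosome, the cytosol and the outside as part of host defence. Glucocorticoids such as dexamethasone act through a nuclear receptor that changes transcription, and lipopolysaccharide (LPS), a part of the outer membrane of Gram-negative bacteria, is sensed through Toll-like receptor 4.

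The cells were macrophages grown out of the bone marrow of C57BL/6J mice, wild-type and 8 to 12 weeks old, and kept with 10% of L929 cell supernatant as the source of the growth factor M-CSF. Cells received LPS plus dexamethasone, LPS, dexamethasone or neither, each for 24 h and for 4 h, with dexamethasone at 100 nM and LPS at 100 ng in a volume the labels do not give. Each of the 8 groups has 3 libraries. The labels do not say whether these came from separate mice or cultures, so a p-value here reflects no more than how far libraries of a group lie apart. Bulk RNA cannot separate fewer cells of a type from less RNA per cell.

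Library totals lay between 18326206 and 27908164 counts, and the members took 1.35 to 1.56% of the counts in group means. Levels below are CPM after TMM scaling, given per library or as mean ± standard deviation (SD) of 3 libraries. Fold changes are on the log2 scale with an approximate standard error (SE), and tests are edgeR's quasi-likelihood tests, their p-values adjusted by the Benjamini-Hochberg method over 14985 genes, every member among them. A gene is said to have risen, fallen or been called when its adjusted p was under 0.05. LPS against untreated cells and LPS plus dexamethasone against LPS share the LPS libraries, so the values of both are given side by side. The TMM factors ran from 0.679 to 1.184 and were lowest at 4 h with LPS. Scaling by library totals alone would move the median log2 fold change of all genes by -0.77 in LPS against untreated cells at 4 h, so changes in that comparison are relative to the middle of all genes. The macrophage marker genes summed to 17541 to 49803 CPM in group means. Markers of other cells summed to at most 141 CPM (neutrophils and their precursors, in LPS at 4 h), 15.5 CPM (dendritic cells), 7.25 CPM (stromal and endothelial cells), 2.32 CPM (mast cells) and 1.65 CPM (lymphocytes). Of the 8 neutrophil markers tested, 5 were called higher with LPS at 4 h, where 34.2% of all genes were. In untreated cells all 8 were called lower at 24 h than at 4 h, where 30.4% of all genes were. The whole list summed to 49.5 CPM in untreated cells at 4 h and 3.35 CPM at 24 h. Its lowest sum was in dexamethasone at 24 h, at 1.80 CPM. The part of these markers in the results below was not tested.

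With LPS at 24 h, 73 members rose and 58 fell, where 29.7% of all genes rose and 30.6% fell (60.4% in either direction), or 54 and 78 members by library totals. With LPS at 4 h, 58 rose and 95 fell, where 34.2% of all genes rose and 38.8% fell (72.9% in either), and library totals alone would give 29 and 135 members. Adding dexamethasone to LPS raised 51 and lowered 59 members at 24 h, where 21% and 22.6% of all genes were called (43.7% in either). At 4 h it raised 50 and lowered 60, where 23.9% and 25.4% of all genes were called (49.3% in either), or 85 and 45 members by library totals. Dexamethasone alone raised 52 and lowered 64 members at 24 h, where 21.9% and 26.5% of all genes were called (48.4% in either). At 4 h it raised 46 and lowered 70, where 17.6% and 23.7% of all genes were called (41.4% in either). The called shares of the members were 73.6% and 86.0% for LPS at 24 h and 4 h, 61.8% at both times for dexamethasone under LPS, and 65.2% at both times for dexamethasone alone. The members had to average 2 CPM, while all genes tested include lower ones. Counts and shares of members, here and below, include the 4 members that met this level only through their highest group. For Slc27a3 and Slc4a8 that group was LPS plus dexamethasone at 24 h. For Slc9b2 it was untreated cells at 4 h, and for Slc18a2 dexamethasone at 4 h. Comparisons with those groups thus count members that the group itself admitted. Among the 11146 tested genes that also average 2 CPM, the called shares were 69.6% and 82.3% for LPS at 24 h and 4 h, 52.9% and 59.4% for dexamethasone under LPS, and 57.7% and 49.9% for dexamethasone alone. With a change of at least 2-fold as well, 28.1% of members against 24.3% of all genes passed for LPS at 24 h, and 41.6% against 39.2% at 4 h. For dexamethasone under LPS the shares were 14% of members and 12.5% of all genes at 24 h, and 12.9% and 13.4% at 4 h. For dexamethasone alone they were 11.2% of members and 14% of all genes at 24 h, and 12.9% and 10.6% at 4 h.

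**Figure D1:**
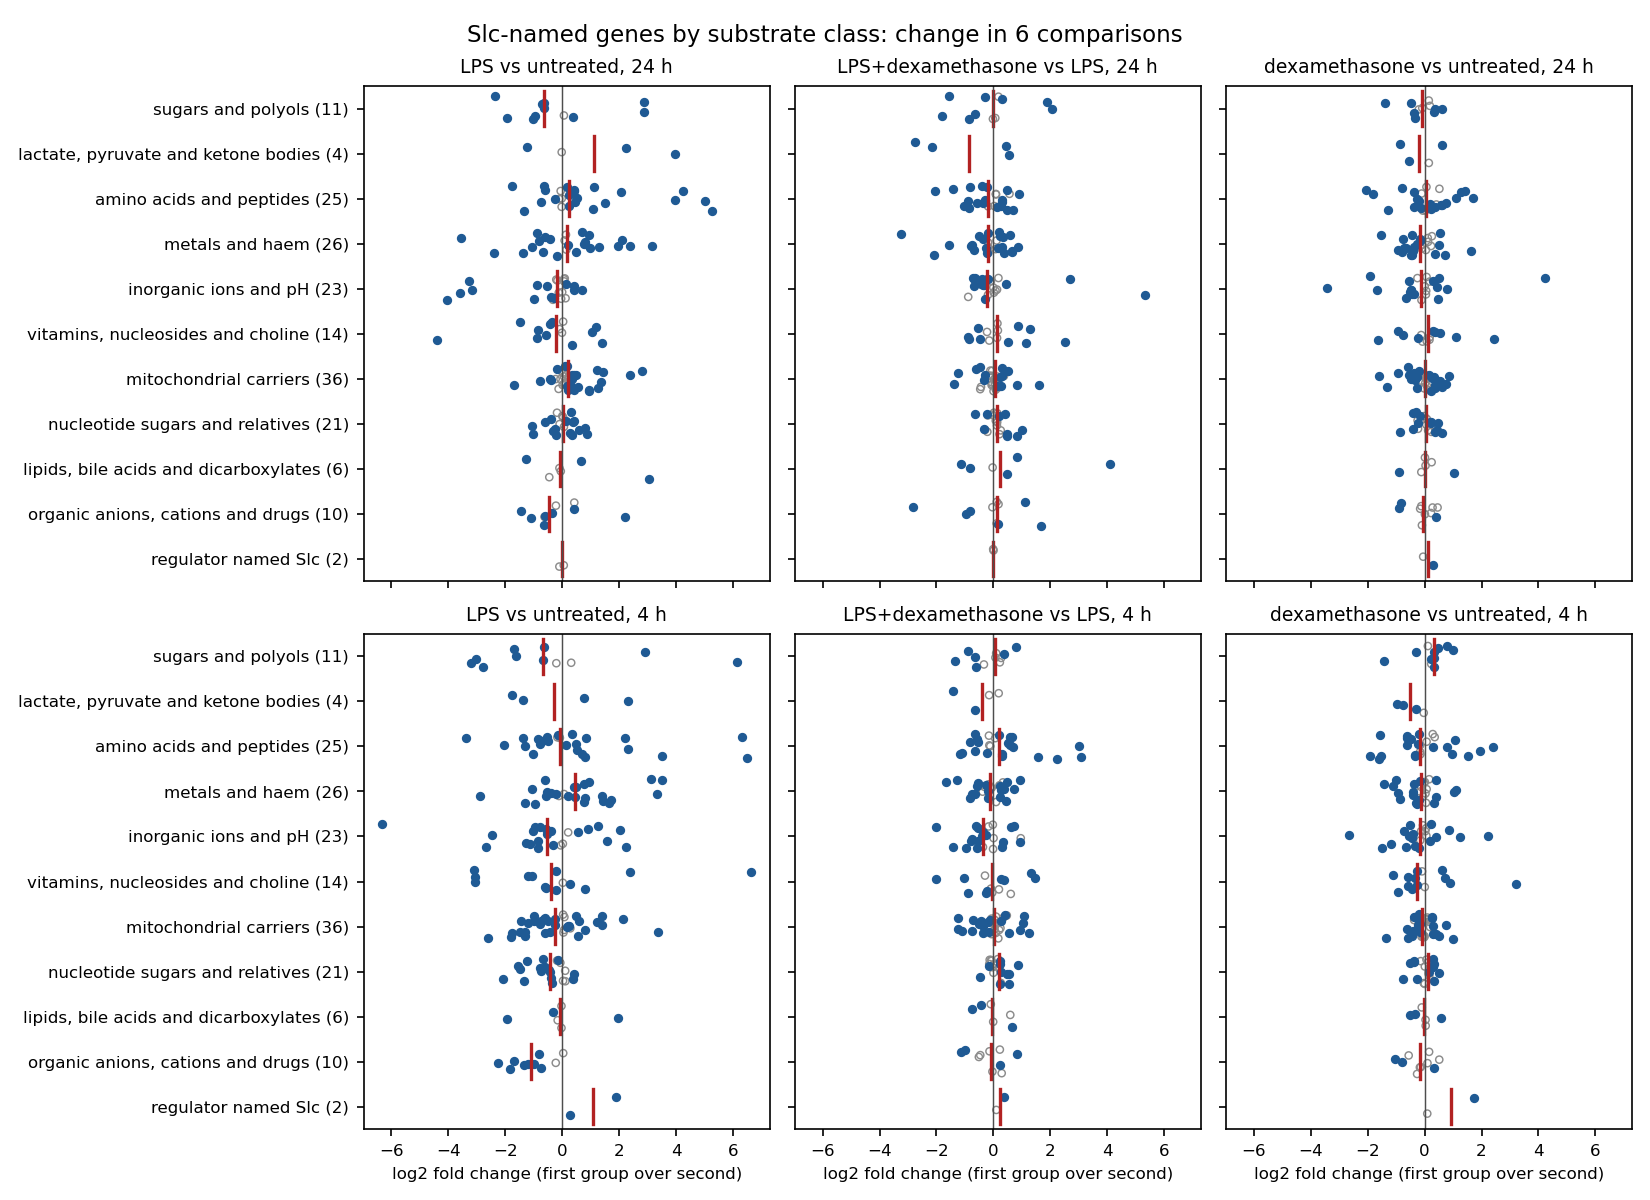
Log2 fold change of each of the 178 Slc-named genes (x axis, first group over second) by substrate class (y axis, number of genes in brackets) in 6 comparisons, with 24 h above 4 h. Filled points passed an adjusted p under 0.05, open points did not, and the red bar is the class median. The lactate class has the lowest class median with dexamethasone under LPS at 24 h, -0.86, where 2 of its 4 members rose and 2 fell. Of all genes, 21% rose and 22.6% fell in that comparison.

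The level of single members spanned a wide range. The ratio of the highest to the lowest of the 8 group means had a median of 3.36 over the members, reached 10 or more in 38 of them and stayed under 2 in 36. It was largest for Slc26a11, at 475, and smallest at 1.30. Per kilobase of exon, the highest members over all groups were Slc25a5, the main mitochondrial exchanger of ADP and ATP, at 210.4 CPM per kb, and the copper-handling Slc31a2, at 129 CPM per kb. The lysosomal hexose carrier Slc2a6 followed at 127 CPM per kb and the taurine carrier Slc6a6 at 119 CPM per kb. That order was not the same in every group. In untreated cells at 4 h, Slc2a6 stood at 5.49 ± 0.591 CPM per kb and Slc25a5 at 201 ± 4.33 CPM per kb, while in LPS at 4 h the values were 386 ± 18.9 CPM per kb for Slc2a6 and 229 ± 14.05 CPM per kb for Slc25a5.

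LPS raised the hexose carriers Slc2a1 and Slc2a6 at both times, while more members of the sugar class fell than rose. Of its 11 members, 3 rose and 7 fell with LPS at 24 h, and 2 rose and 7 fell at 4 h. Of all genes, 29.7% rose and 30.6% fell at 24 h, and 34.2% and 38.8% at 4 h. The class medians were -0.63 and -0.66, against -0.02 and -0.07 for all genes. Slc2a1 encodes GLUT1, the glucose transporter of the plasma membrane found in most cells. It had 225, 226 and 200.03 CPM in LPS at 24 h, against 33.4, 26.4 and 30.2 CPM in untreated cells. The groups did not overlap (log2 fold change 2.86 ± 0.07, adjusted p = 3.9e-27). With dexamethasone added to LPS for 24 h the libraries had 68.03, 57.8 and 61.3 CPM, all below every library with LPS alone (log2 fold change -1.80 ± 0.07, adjusted p = 2.2e-21). The fall was smaller at 4 h, where LPS plus dexamethasone gave 218, 219 and 234 CPM and LPS gave 395, 408 and 428 CPM (log2 fold change -0.88 ± 0.07, adjusted p = 1.4e-13), and the difference between the 2 times was itself past the test (log2 difference -0.92 ± 0.09, adjusted p = 6.6e-10). Without LPS, dexamethasone lowered Slc2a1 by less (log2 fold changes -0.36 ± 0.08 at 24 h and -0.31 ± 0.07 at 4 h).

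Slc2a6 encodes GLUT6, a hexose transporter of the lysosomal membrane in macrophages. In LPS at 4 h its libraries had 1185, 1304 and 1226 CPM, against 15.8, 17.4 and 19.6 CPM in untreated cells (log2 fold change 6.14 ± 0.08, adjusted p = 5.7e-37), a 70.7-fold difference. At 24 h the levels were 357, 354 and 363 CPM with LPS and 47.8, 52.5 and 45.2 CPM without, so the groups stayed apart and the LPS effect was smaller (log2 difference -3.26 ± 0.10, adjusted p = 1.8e-25, 24 h minus 4 h). Dexamethasone under LPS did not change it past the test at 4 h (log2 fold change 0.07 ± 0.06, adjusted p = 0.36) and lowered it at 24 h (log2 fold change -0.65 ± 0.06, adjusted p = 6.6e-11). GLUT3, encoded by Slc2a3 and known for its high affinity, went the other way with LPS. It averaged 3.81 ± 0.503 CPM in LPS and 14.6 ± 0.858 CPM in untreated cells at 24 h (log2 fold change -1.94 ± 0.14, adjusted p = 1.9e-14). LPS plus dexamethasone for 24 h gave 16.03, 14.4 and 17.6 CPM, against 4.13, 4.06 and 3.23 CPM with LPS (log2 fold change 2.07 ± 0.14, adjusted p = 1.2e-14). At 4 h the same addition lowered it, to 7.17 ± 2.15 CPM with both agents against 11.2 ± 0.516 CPM with LPS (log2 fold change -0.63 ± 0.14, adjusted p = 0.00025). Slc2a8, a carrier of internal membranes, averaged 10.2 ± 0.519 CPM in LPS and 20.5 ± 2.42 CPM in untreated cells at 24 h, and fell at both times with LPS (log2 fold changes -1.01 ± 0.11 and -1.68 ± 0.12).

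The Slc37 family exchanges sugar phosphates for phosphate, and its member Slc37a4 is the glucose-6-phosphate transporter of the endoplasmic reticulum. Slc37a2 fell in all 6 comparisons with an agent. At 24 h its libraries had 63.1, 70.1 and 69.8 CPM with LPS plus dexamethasone, 127, 122 and 117 CPM with LPS, 232, 245 and 239.6 CPM with dexamethasone and 644, 617 and 638 CPM in untreated cells. The level increased across the 4 groups in that order, with no overlap. The log2 fold changes at 24 h were -0.85 ± 0.11 for dexamethasone under LPS, -2.38 ± 0.10 for LPS and -1.41 ± 0.10 for dexamethasone alone. At 4 h they were -1.34 ± 0.11, -2.78 ± 0.10 and -1.43 ± 0.10 in the same order of comparisons. Slc37a1 did not follow it: it had 15.4, 17.1 and 14.8 CPM with LPS plus dexamethasone at 24 h and 3.17, 4.53 and 5.11 CPM with LPS (log2 fold change 1.89 ± 0.15, adjusted p = 3e-13). Slc37a4 changed by less, with log2 fold changes of 0.40 ± 0.10 for LPS at 24 h and -0.66 ± 0.11 at 4 h. The sodium-coupled inositol carrier Slc5a3, which imports an osmolyte, fell with LPS at 4 h to 2.19 ± 0.398 CPM, against 20.3 ± 1.46 CPM in untreated cells (log2 fold change -3.20 ± 0.19, adjusted p = 5.6e-16).

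The genes of the lactate carriers MCT4 and MCT1 rose with LPS and fell when dexamethasone was added. The log2 fold changes were larger in size at 24 h than at 4 h, but the level of Slc16a1 with LPS was not. By library totals alone, Slc16a1 was not called with LPS at 4 h. Slc16a3 encodes MCT4, the lactate exporter of glycolytic cells, and Slc16a1 encodes MCT1, which carries lactate and pyruvate in either direction. In LPS at 24 h Slc16a3 had 504, 530.05 and 444 CPM, against 35.5, 27.9 and 31.3 CPM in untreated cells (log2 fold change 3.97 ± 0.11, adjusted p = 2.9e-19). LPS plus dexamethasone gave 81.96, 67.1 and 72.1 CPM, below every library of LPS alone and above every untreated library (log2 fold change -2.74 ± 0.10, adjusted p = 3e-16). Dexamethasone alone gave 18.5, 18.2 and 15.8 CPM (log2 fold change -0.85 ± 0.12, adjusted p = 2.3e-06), and the effect of dexamethasone was larger with LPS than without it (log2 difference -1.89 ± 0.15, adjusted p = 7.4e-10). Slc16a1 followed a like course at 24 h, with 18.2, 14.3 and 14.7 CPM for LPS plus dexamethasone, 70.1, 78.6 and 60.6 CPM for LPS and 17.2, 12.1 and 14.96 CPM in untreated cells. Its log2 fold changes were -2.15 ± 0.11 for dexamethasone under LPS and 2.25 ± 0.11 for LPS. The groups with both agents and with neither overlapped. The difference of the 2 times in the dexamethasone effect under LPS was -2.08 ± 0.14 for Slc16a3 and -0.74 ± 0.15 for Slc16a1 on the log2 scale, and that in the LPS effect 1.65 ± 0.14 and 1.47 ± 0.14, all past the test. With LPS at 4 h the log2 fold change of Slc16a1 was 0.77 ± 0.10, but by library totals alone it was 0.00320 and not called. Its highest group mean was nevertheless that of LPS at 4 h, at 81.5 CPM. The larger LPS effect at 24 h thus did not go with a higher level of Slc16a1 in LPS. At 4 h, the log2 fold change for dexamethasone under LPS was -1.40 ± 0.10 for Slc16a1 and -0.66 ± 0.09 for Slc16a3. The other members of the class did not share this course. Slc16a7, which encodes the pyruvate carrier MCT2, fell with LPS at 24 h (log2 fold change -1.22 ± 0.08) and rose with dexamethasone under LPS (0.44 ± 0.08). For Slc16a6, known as a ketone body exporter of the liver, LPS at 24 h gave 23.6 ± 1.23 CPM and untreated cells 23.8 ± 2.21 CPM, which did not pass the test (log2 fold change -0.02 ± 0.10, adjusted p = 0.9). Exons of other genes cover 23.5% of its exon bases.

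The promoters of Slc2a1 and Slc16a3 are shown because both genes rose with LPS and fell with dexamethasone under LPS at both times. Slc16a1 did so too, but its promoter held no match to the motif marked here and is not printed. Both sequences are from RefSeq on build GRCm38.p6, run from 250 bases before to 50 bases after the start, and were read on the plus strand at chr4:119108495-119108794 and chr11:120948817-120949116. Capitals mark ACGTGC on either strand, the core that hypoxia-inducible factors are known to bind.
Slc2a1: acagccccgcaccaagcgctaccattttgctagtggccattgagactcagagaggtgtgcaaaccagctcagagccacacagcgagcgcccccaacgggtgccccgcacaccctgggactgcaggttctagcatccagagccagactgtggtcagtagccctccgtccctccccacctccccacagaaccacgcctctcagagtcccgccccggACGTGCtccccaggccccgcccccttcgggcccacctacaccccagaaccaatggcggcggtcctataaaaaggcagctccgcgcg
Slc16a3: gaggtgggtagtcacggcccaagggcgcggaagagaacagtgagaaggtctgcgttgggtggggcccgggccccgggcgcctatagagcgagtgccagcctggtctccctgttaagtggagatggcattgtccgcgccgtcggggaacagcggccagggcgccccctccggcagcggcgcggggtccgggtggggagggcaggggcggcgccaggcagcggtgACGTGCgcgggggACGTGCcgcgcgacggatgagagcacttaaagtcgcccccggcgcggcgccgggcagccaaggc
The letters stood at -36 bases from the start in Slc2a1 and at -27 and -14 in Slc16a3. They occurred in 5.91% of the 32851 promoters of the same length and in 14 of the 186 promoters of the 136 members with an entry (7.53%), and a match is a description of the sequence only.

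**Figure D2:**
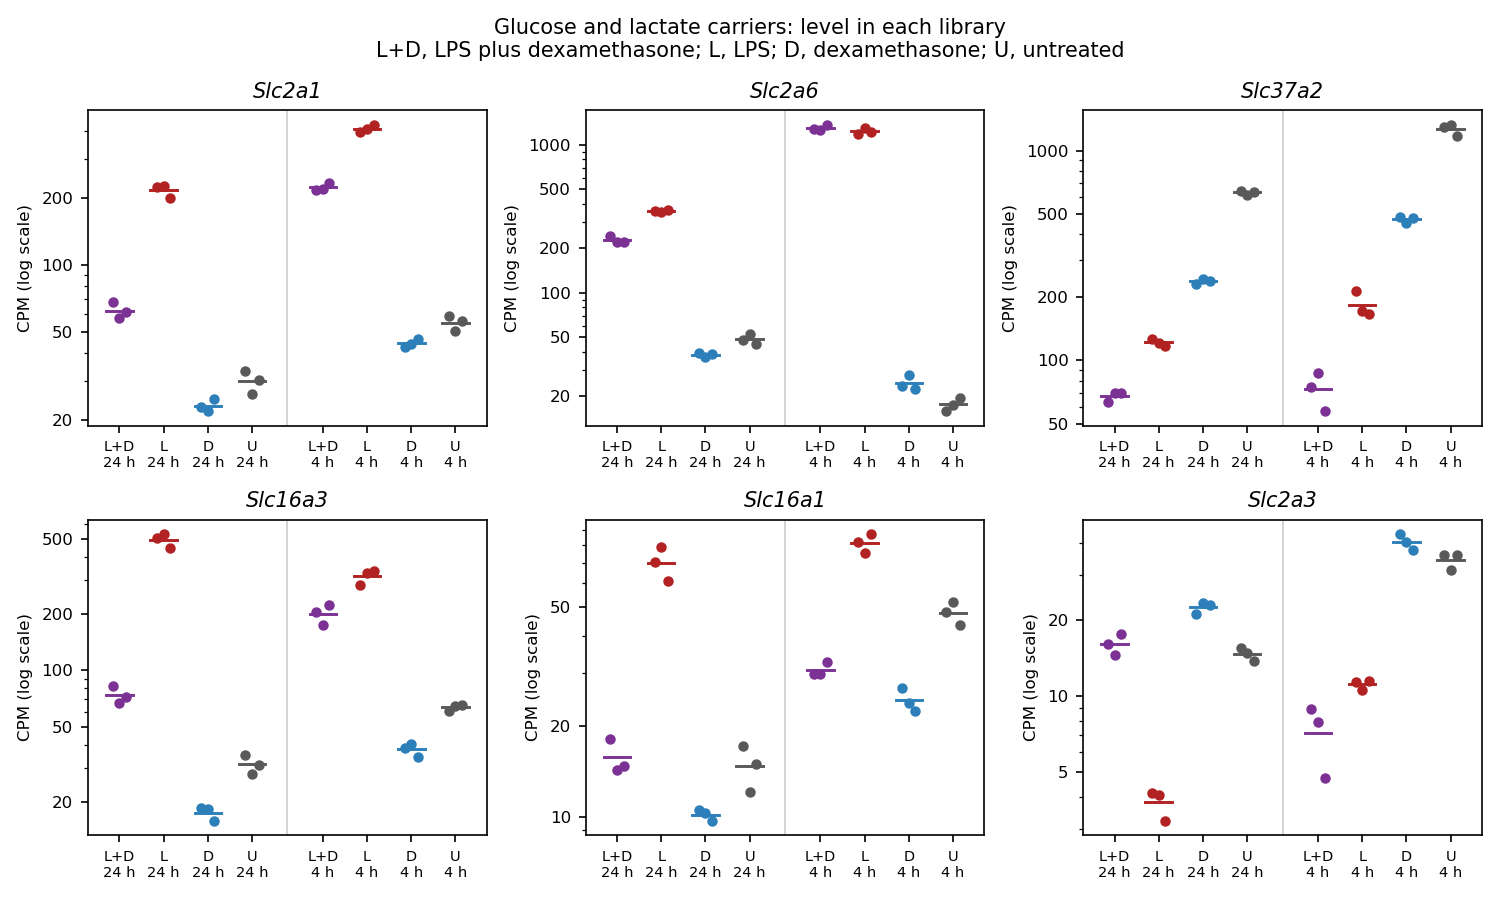
Level of 6 glucose and lactate carriers in each library (y axis, CPM after TMM scaling, log scale) by treatment, with 24 h left of 4 h; points are libraries and bars are means of 3. Among the 24 h groups, Slc2a1, Slc16a3 and Slc16a1 are highest with LPS alone, and Slc37a2 is lowest with LPS plus dexamethasone at both times.

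Partner genes of these carriers were followed in a list of 28 genes that are not solute carriers. Basigin, encoded by Bsg, is the chaperone that brings MCT1 and MCT4 to the membrane, and hexokinase 2 (Hk2) traps glucose in the cell. At 24 h Bsg averaged 277 ± 18.8 CPM with LPS plus dexamethasone, 432 ± 3.93 CPM with LPS and 204 ± 5.39 CPM in untreated cells (log2 fold changes -0.64 ± 0.05 for dexamethasone under LPS and 1.08 ± 0.05 for LPS). Hk2 averaged 78.1 ± 4.54 CPM with LPS plus dexamethasone, 164 ± 6.50 CPM with LPS and 32.1 ± 4.03 CPM in untreated cells at 24 h, with log2 fold changes of -1.07 ± 0.07 for dexamethasone under LPS and 2.35 ± 0.08 for LPS. Embigin (Emb), the partner of MCT2, rose with dexamethasone alone at 24 h (543 ± 24.4 CPM against 191 ± 19.97 CPM in untreated cells, log2 fold change 1.51 ± 0.07, adjusted p = 6.4e-17). In the whole list, 19 genes rose and 5 fell with LPS at 24 h, and 7 rose and 16 fell with dexamethasone under LPS at 24 h. Of all genes, 29.7% rose and 30.6% fell in the first comparison, and 21% and 22.6% in the second. The list medians were 0.78 and -0.39, against -0.02 and 0.00 for all genes.

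The 3 largest rises of a member with LPS at 24 h were those of the amino acid carriers Slc6a13, Slc7a2 and Slc6a12. Of the 25 members of this class, 15 rose and 6 fell at 24 h, and 12 rose and 11 fell at 4 h, where library totals alone would give 5 and 16. Of all genes, 29.7% rose and 30.6% fell at 24 h, and 34.2% and 38.8% at 4 h. The class medians were 0.24 and -0.08, against -0.02 and -0.07 for all genes. Slc7a2 encodes CAT2, which imports arginine and other cationic amino acids and feeds nitric oxide synthesis in activated macrophages. In LPS at 4 h it had 1245, 1316 and 1297 CPM, against 15.6, 11.8 and 15.7 CPM in untreated cells (log2 fold change 6.47 ± 0.20, adjusted p = 2e-15), an 88.9-fold difference. At 24 h it had 295, 184 and 187 CPM with LPS and 8.33, 6.14 and 6.18 CPM without. For dexamethasone under LPS the log2 fold changes of Slc7a2 did not pass the test, at -0.19 ± 0.16 (adjusted p = 0.37) at 24 h and 0.06 ± 0.15 (adjusted p = 0.77) at 4 h. Without LPS, dexamethasone raised it at both times (1.70 ± 0.23 and 0.95 ± 0.20). The related Slc7a1 (CAT1), the carrier of most dividing cells, went down with dexamethasone in all 4 settings. Its mean at 4 h was 115 ± 7.68 CPM with LPS plus dexamethasone, 168 ± 1.11 CPM with LPS, 40.9 ± 1.06 CPM with dexamethasone and 118 ± 10.6 CPM in untreated cells.

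Slc7a11 encodes xCT, the light chain of the exchanger that imports cystine for glutathione and releases glutamate. Its response to dexamethasone depended on LPS and on time. At 4 h the libraries had 955, 1028 and 1006 CPM with LPS plus dexamethasone and 356, 329 and 328 CPM with LPS, and 24.8, 22.7 and 19.2 CPM with dexamethasone and 4.21, 3.41 and 5.02 CPM in untreated cells. None of the 4 groups overlapped, and dexamethasone raised the gene both under LPS (log2 fold change 1.56 ± 0.16, adjusted p = 2.8e-07) and without it (log2 fold change 2.40 ± 0.26, adjusted p = 5.6e-07). LPS alone raised it at 4 h (log2 fold change 6.32 ± 0.23, adjusted p = 2.7e-14). At 24 h the direction under LPS was the opposite, with 74.4, 50.98 and 53.01 CPM for LPS plus dexamethasone against 146, 96.7 and 86.1 CPM for LPS (log2 fold change -0.88 ± 0.18, adjusted p = 0.00045). That fall lost its call when only the groups compared were fitted (-0.88, adjusted p = 0.065). The difference between the times passed the test (log2 difference -2.45 ± 0.24, adjusted p = 2.1e-07). Without LPS at 24 h the change was 0.52 ± 0.26 and did not pass it (adjusted p = 0.12). That change was called in DESeq2 (0.54, adjusted p = 0.019) and in the edgeR fit of only the groups compared (0.54, adjusted p = 0.0045). The heavy chain that xCT and several related carriers share, encoded by Slc3a2 (CD98), averaged 117 ± 8.03 CPM with both agents and 214 ± 11.1 CPM with LPS at 24 h (log2 fold change -0.87 ± 0.06, adjusted p = 5.6e-14).

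The promoter of Slc7a11 is shown because its change with dexamethasone under LPS differed in sign between the times. It lies on the minus strand at chr3:50443564-50443863 (GRCm38.p6, RefSeq), and capitals mark TGATGNAA on either strand, the kind of site that ATF4 and C/EBP factors are known to bind together.
Slc7a11: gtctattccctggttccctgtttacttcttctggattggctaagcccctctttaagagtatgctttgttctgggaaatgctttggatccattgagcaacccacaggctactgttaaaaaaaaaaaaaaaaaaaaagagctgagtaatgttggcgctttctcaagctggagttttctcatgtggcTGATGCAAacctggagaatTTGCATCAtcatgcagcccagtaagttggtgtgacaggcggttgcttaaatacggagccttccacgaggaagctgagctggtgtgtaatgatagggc
The 2 matches stood at -66 and -47 bases from the start, in opposite orientations. At least 1 match was found in 3.97% of all promoters and in 5 of the 186 member promoters (2.69%). No member promoter held AGNACA, 3 free bases and TGTNCT, the palindrome of the glucocorticoid receptor, within this window. It occurred in 0.0639% of all promoters, too rare for its absence from 186 promoters to show a difference.

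Carriers of large neutral amino acids did not move as a group. Slc43a2 encodes LAT4, which exports branched-chain amino acids and phenylalanine. At 4 h it had 242, 258 and 228 CPM with LPS plus dexamethasone and 56.1, 55.03 and 43.5 CPM with LPS, and 1651, 1552 and 1522 CPM with dexamethasone and 538, 526 and 566 CPM in untreated cells. The 4 groups did not overlap. LPS lowered it (log2 fold change -3.39 ± 0.07, adjusted p = 1.4e-30) and dexamethasone raised it with LPS (log2 fold change 2.23 ± 0.07, adjusted p = 4.1e-24) and without (log2 fold change 1.54 ± 0.06, adjusted p = 1.2e-20). At 24 h the log2 fold change was -0.26 ± 0.06 for LPS and 0.47 ± 0.06 for dexamethasone under LPS. Slc7a5 (LAT1), which imports leucine and related amino acids, fell with dexamethasone in all 4 settings. Its libraries at 4 h had 59.7, 56.9 and 56.1 CPM with both agents, 125, 129 and 115 CPM with LPS, 24.2, 22.8 and 23.01 CPM with dexamethasone and 75.6, 58.2 and 71.9 CPM in untreated cells. The difference between the times without any agent was larger than these falls: untreated cells had 8.51, 3.52 and 6.04 CPM at 24 h (log2 fold change -3.53 ± 0.18, adjusted p = 1.2e-12, 24 h over 4 h). What made the times differ was not tested. Slc7a8 (LAT2) also fell with dexamethasone under LPS, to 73.5 ± 5.73 CPM at 24 h against 197 ± 6.88 CPM with LPS (log2 fold change -1.42 ± 0.07, adjusted p = 3.3e-17). The aromatic amino acid carrier Slc16a10 (TAT1) responded to dexamethasone at 4 h in opposite directions with and without LPS. It averaged 525 ± 10.8 CPM with LPS plus dexamethasone and 352 ± 3.44 CPM with LPS (log2 fold change 0.58 ± 0.05, adjusted p = 2.1e-13), and 91.2 ± 4.47 CPM with dexamethasone and 279.7 ± 2.80 CPM in untreated cells (log2 fold change -1.62 ± 0.05, adjusted p = 1e-25).

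Slc6a12 and Slc6a13 are neighbours on chromosome 6 and encode BGT1, a carrier of the osmolyte betaine and of GABA, and GAT2, which carries GABA and taurine. The table places Slc6a13 at 121277186 to 121314692 and Slc6a12 at 121320035 to 121342734, both on the plus strand and in the coordinates of its own annotation, which are not those of the promoters shown next. Slc6a12 was called higher in every comparison with an agent at both times. At 24 h it had 448, 344 and 356 CPM with LPS plus dexamethasone and 270.2, 213 and 225 CPM with LPS, against 33.7, 31.8 and 34.6 CPM with dexamethasone and 10.3, 17.8 and 8.91 CPM in untreated cells. The groups did not overlap (log2 fold change 4.24 ± 0.22, adjusted p = 1e-11 for LPS; log2 fold change 0.70 ± 0.18, adjusted p = 0.004 for dexamethasone under LPS). At 4 h the rise with dexamethasone under LPS was larger, with 157, 130.2 and 179.6 CPM against 13.7, 18.9 and 23.6 CPM with LPS (log2 fold change 3.07 ± 0.22, adjusted p = 1.8e-09; log2 difference -2.37 ± 0.28, adjusted p = 2.6e-06 for 24 h minus 4 h). Slc6a13 rose later. It had 78.4, 68.5 and 72.8 CPM with both agents and 42.2, 36.5 and 37.9 CPM with LPS at 24 h, against 0.951, 1.02 and 1.03 CPM in untreated cells (log2 fold change 5.27 ± 0.18, adjusted p = 3.8e-23 for LPS). At 4 h its LPS libraries held 18 counts in sum and untreated libraries 29, and only the group with both agents passed 1 CPM, at 3.01, 2.48 and 2.88 CPM. The 2 genes share no exon bases with each other or with any other annotated gene.

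Of the 136 members with a promoter entry, only Slc6a12, Slc6a13 and Slc37a4 held GGGAN followed by TTTCC, a form of the site that NF-kB is known to bind. Promoters of the first 2 are shown for that reason. Both are on the plus strand of chromosome 6 (GRCm38.p6, RefSeq): the third of 3 starts of Slc6a13 at chr6:121303389-121303688 and the first of 5 starts of Slc6a12 at chr6:121342324-121342623. Capitals mark that motif on either strand and, in Slc6a12, also TGANTCA, the form AP-1 is known to bind.
Slc6a13: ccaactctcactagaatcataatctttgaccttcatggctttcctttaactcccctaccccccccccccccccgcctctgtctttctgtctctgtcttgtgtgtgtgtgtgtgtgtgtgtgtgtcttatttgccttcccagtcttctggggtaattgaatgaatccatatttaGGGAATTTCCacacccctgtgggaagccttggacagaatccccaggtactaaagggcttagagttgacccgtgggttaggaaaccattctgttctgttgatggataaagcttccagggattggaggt
Slc6a12: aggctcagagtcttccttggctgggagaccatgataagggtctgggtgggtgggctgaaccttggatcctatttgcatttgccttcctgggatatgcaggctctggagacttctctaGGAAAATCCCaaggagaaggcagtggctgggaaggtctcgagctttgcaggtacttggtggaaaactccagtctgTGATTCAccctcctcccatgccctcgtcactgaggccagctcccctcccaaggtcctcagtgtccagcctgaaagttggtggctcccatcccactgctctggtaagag
The first motif stood at -77 bases in Slc6a13 and at -133 in Slc6a12, and TGANTCA at -58 in Slc6a12. The NF-kB form occurred in 0.411% of all promoters and in 3 of the 186 member promoters (1.61%), and TGANTCA in 7.81% and in 9 (4.84%). Which start was used in these cells was not measured.

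Lysosomal and osmolyte carriers of the class showed their own courses. Slc15a3 exports histidine and small peptides from the lysosome. It had 1546, 1600.2 and 1514 CPM in LPS at 4 h, against 147, 123 and 143 CPM in untreated cells (log2 fold change 3.49 ± 0.06, adjusted p = 1e-33). Reads on several genes were left to the counting tool's default. Slc15a3 shares 28.1% of its exon bases with Tmem132a on the other strand, and unstranded counting cannot tell which gene a read there came from. Dexamethasone lowered it in all 4 settings, by more without LPS than with it at 24 h (log2 difference 1.02 ± 0.08, adjusted p = 6.8e-13; 65.1 ± 1.51 CPM against 269.7 ± 7.66 CPM in untreated cells at 24 h, log2 fold change -2.05 ± 0.06, adjusted p = 1e-25). Slc15a4, its lysosomal relative, fell with LPS at 24 h (42.7 ± 2.39 CPM against 108 ± 5.84 CPM in untreated cells, log2 fold change -1.34 ± 0.06, adjusted p = 6.4e-21). Slc36a1 (PAT1), which moves amino acids out of the lysosome with protons, rose with dexamethasone in all 4 settings. At 24 h it averaged 106 ± 9.43 CPM with both agents and 88.4 ± 4.08 CPM with LPS, and 158 ± 11.7 CPM with dexamethasone and 65.2 ± 2.93 CPM in untreated cells. The taurine carrier Slc6a6, the highest amino acid carrier per kilobase, fell with LPS and with dexamethasone at both times, with log2 fold changes between -0.75 (LPS, 24 h) and -0.38 (dexamethasone alone, 24 h). Of the glutamine and neutral amino acid carriers, Slc38a2 fell with LPS at 4 h (-1.04 ± 0.08) and rose with dexamethasone alone at 24 h (0.75 ± 0.08), and Slc1a5 fell with LPS at both times (-0.61 ± 0.09 and -0.69 ± 0.08).

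**Figure D3:**
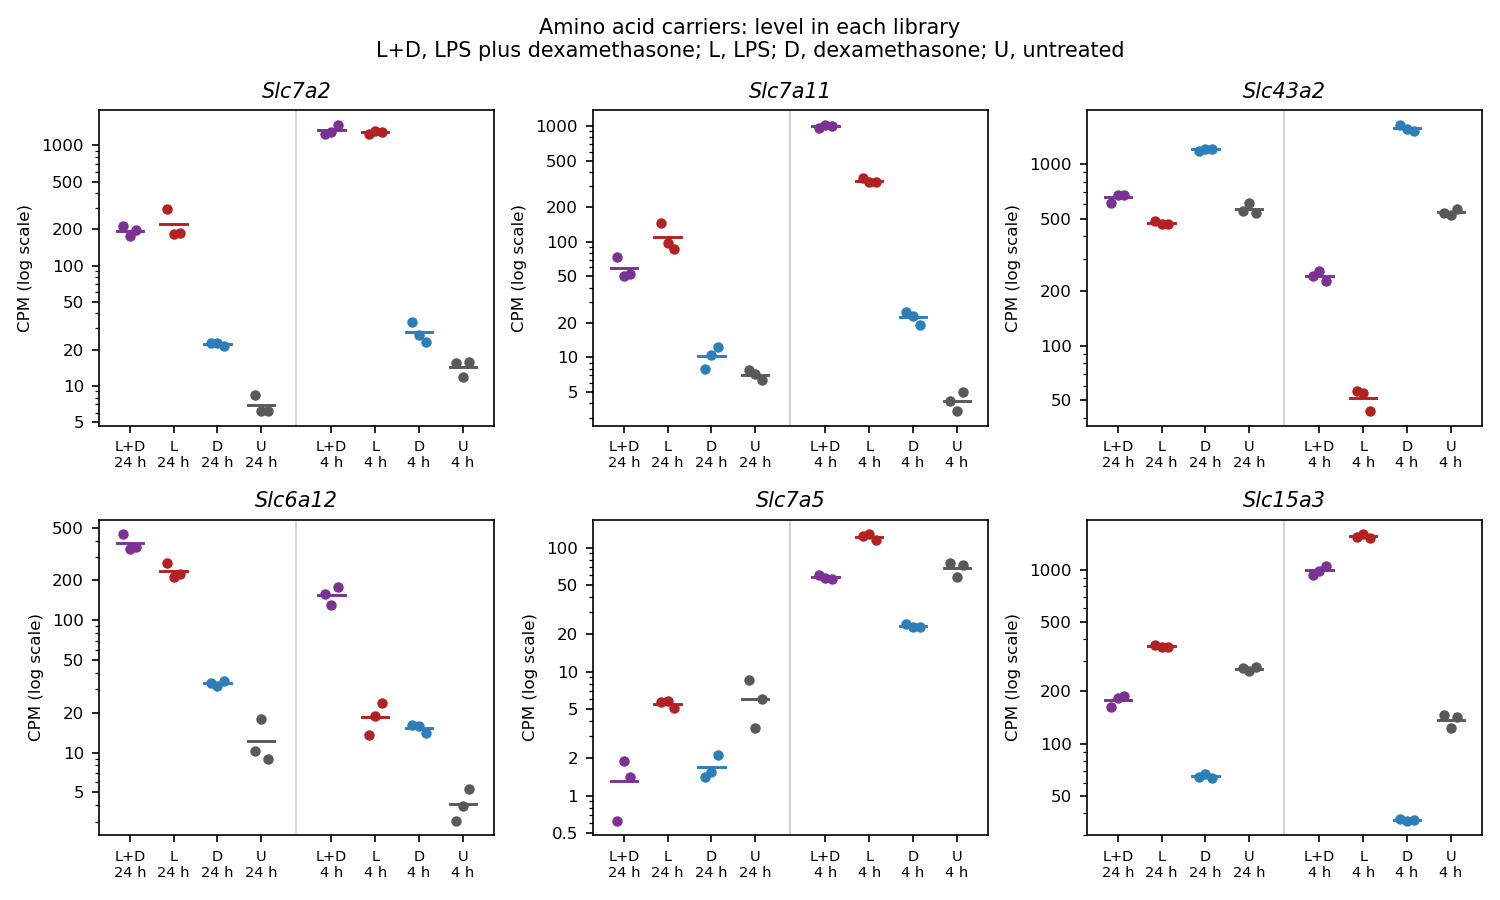
Level of 6 amino acid carriers in each library (y axis, CPM after TMM scaling, log scale) by treatment, with 24 h left of 4 h; points are libraries and bars are means of 3. Slc7a11 is higher with LPS plus dexamethasone than with LPS at 4 h and lower at 24 h, and Slc43a2 is lowest with LPS alone at 4 h.

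Carriers of iron and haem changed in both directions. Slc40a1 encodes ferroportin, the exporter of iron from the cell. At 24 h it had 1.05, 1.91 and 0.571 CPM with LPS plus dexamethasone, 14.4, 9.01 and 9.88 CPM with LPS, 129, 137 and 140.2 CPM with dexamethasone and 126, 136 and 131 CPM in untreated cells. The libraries with LPS lay far below those without (log2 fold change -3.55 ± 0.12, adjusted p = 1.2e-20), and those with both agents lay below those with LPS alone (log2 fold change -3.24 ± 0.21, adjusted p = 2.8e-13). The group with both agents held 68 counts in sum. Dexamethasone without LPS gave no change past the test (log2 fold change 0.05 ± 0.09, adjusted p = 0.73), and the difference between the 2 dexamethasone effects was past it (log2 difference -3.28 ± 0.24, adjusted p = 3.6e-12). Untreated cells had 21.2, 21.2 and 21.7 CPM at 4 h, so the level was higher at 24 h (log2 fold change 2.62 ± 0.11, adjusted p = 4.5e-18, 24 h over 4 h). Slc48a1 encodes HRG1, which carries haem out of the phagolysosome. At 24 h it rose with LPS and fell when dexamethasone was added: the libraries had 126, 135 and 131 CPM with both agents, 598, 553 and 504 CPM with LPS and 224, 231 and 216 CPM in untreated cells. The log2 fold change was 1.30 ± 0.06 for LPS and -2.08 ± 0.07 for dexamethasone under LPS, and at 4 h that second value was 0.24 ± 0.07.

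Of the importers of divalent metals, Slc11a2 and Slc39a14 rose with LPS at both times. Slc11a2 (DMT1), which carries ferrous iron and other divalent metals, had 389.6, 386 and 373 CPM in LPS at 4 h, against 44.5, 44.9 and 42.6 CPM in untreated cells (log2 fold change 3.12 ± 0.06, adjusted p = 1.8e-33). At 24 h the values were 172, 163 and 159 CPM with LPS and 82.1, 87.03 and 81.4 CPM without. Slc39a14 (ZIP14), an importer of zinc and iron, had 628, 607 and 609 CPM in LPS at 4 h, against 62.7, 59.2 and 63.3 CPM in untreated cells (log2 fold change 3.31 ± 0.07, adjusted p = 9.5e-32). With dexamethasone under LPS the change of Slc11a2 at 24 h did not pass the test (log2 fold change 0.11 ± 0.05, adjusted p = 0.078), though it did without replicate 1 of LPS at 24 h, in DESeq2 and with both other scalings, and that of Slc39a14 at 4 h did not pass it (log2 fold change 0.09 ± 0.06, adjusted p = 0.21). Slc11a1 (Nramp1) exports divalent metals from the phagosome, and C57BL/6 mice are known to carry a non-functional form of it. Its RNA averaged 618 ± 21.8 CPM in LPS and 355 ± 3.90 CPM in untreated cells at 24 h (log2 fold change 0.80 ± 0.05, adjusted p = 6.4e-17). The mitochondrial iron importer mitoferrin 1 (Slc25a37) had 125, 89.1 and 107 CPM with both agents, 295, 266 and 272 CPM with LPS and 36.00, 41.5 and 40.9 CPM in untreated cells at 24 h (log2 fold changes -1.37 ± 0.10 for dexamethasone under LPS and 2.81 ± 0.11 for LPS). Outside the solute carriers, the ferritin heavy chain gene Fth1 had 19920.3 ± 489 CPM with both agents, 34608 ± 716 CPM with LPS and 10281 ± 356 CPM in untreated cells at 24 h. The transferrin receptor gene Tfrc had 74.4 ± 3.90 CPM with both agents, 107 ± 11.5 CPM with LPS and 39.8 ± 2.27 CPM in untreated cells.

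The copper carriers Slc31a1 and Slc31a2 rose with each agent. Slc31a1 (CTR1), the copper importer of the plasma membrane, had 591, 662 and 659 CPM with LPS plus dexamethasone, 392, 403 and 413 CPM with LPS, 253, 233 and 239 CPM with dexamethasone and 78.5, 79.7 and 75.6 CPM in untreated cells at 24 h. The level decreased across the 4 groups in that order, with no overlap. The log2 fold changes at 24 h were 0.66 ± 0.05 for dexamethasone under LPS, 2.37 ± 0.06 for LPS and 1.63 ± 0.06 for dexamethasone alone, and at 4 h they were 0.94 ± 0.05, 1.73 ± 0.06 and 1.11 ± 0.06. Slc31a2 (CTR2), a copper carrier of internal membranes, was called higher in the same 6 comparisons, by most with LPS at 4 h (3.52 ± 0.06).

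Zinc exporters and importers were mixed. Slc30a1 (ZnT1) and Slc30a4 (ZnT4) move zinc out of the cytosol and fell with dexamethasone in all 4 settings. Slc30a4 had 24.9, 28.03 and 27.5 CPM with both agents and 89.3, 80.1 and 87.6 CPM with LPS at 4 h, against 27.7, 29.2 and 26.01 CPM in untreated cells. LPS thus raised it at 4 h (log2 fold change 1.63 ± 0.08, adjusted p = 4.6e-20), dexamethasone under LPS lowered it (log2 fold change -1.68 ± 0.08, adjusted p = 4.3e-19), and at 24 h LPS lowered it (-0.90 ± 0.09). Slc30a1 was also higher with LPS at 4 h and lower at 24 h (log2 fold changes 0.81 ± 0.07 and -1.07 ± 0.07), but by library totals alone the value at 4 h was 0.04 and not called. Slc39a1 (ZIP1) was the highest zinc importer per kilobase and rose with LPS at 4 h (log2 fold change 1.45 ± 0.05, adjusted p = 2.2e-25). Slc39a10 (ZIP10) fell with LPS and with dexamethasone, to 7.73 ± 1.89 CPM with both agents at 24 h, against 12.5 ± 0.798 CPM with LPS, 23.02 ± 0.830 CPM with dexamethasone and 66.7 ± 4.52 CPM in untreated cells. Slc39a8 (ZIP8) changed with dexamethasone in opposite directions at the 2 times, with and without LPS (0.88 ± 0.17 and 0.73 ± 0.14 at 24 h, -0.74 ± 0.14 and -0.40 ± 0.14 at 4 h). The last of these values lost its call without dexamethasone replicate 2 or 3 at 4 h (-0.34 and -0.36). Of the 26 metal and haem carriers, 13 rose and 10 fell with LPS at 24 h, where 29.7% of all genes rose and 30.6% fell. At 4 h 15 rose and 9 fell, where 34.2% and 38.8% of all genes did, but library totals alone would give 8 and 13. The class medians were 0.18 at 24 h and 0.43 at 4 h, against -0.02 and -0.07 for all genes.

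The largest fall of a member with LPS at 4 h was that of an ion carrier, Slc26a11. It encodes an anion exchanger that can carry sulphate. It had 0.314, 0.285 and 0.500 CPM in LPS at 4 h (19 counts in sum), against 28.6, 29.4 and 30.3 CPM in untreated cells (log2 fold change -6.32 ± 0.16, adjusted p = 3.6e-29). At 24 h the values were 10.5, 9.58 and 10.4 CPM with LPS and 96.9, 100.1 and 101 CPM without (log2 fold change -3.29 ± 0.08, adjusted p = 1e-28). Dexamethasone under LPS gave no change past the test at either time (adjusted p = 0.57 at 24 h and 0.56 at 4 h). Slc9a9, an endosomal sodium-proton exchanger, fell with LPS at 24 h, to 11.4, 15.4 and 14.6 CPM against 116, 135 and 117 CPM in untreated cells (log2 fold change -3.16 ± 0.13, adjusted p = 4.1e-15), and by more than at 4 h (log2 difference -2.84 ± 0.18, adjusted p = 7.7e-12). Slc8b1, the sodium-calcium exchanger of the mitochondrial inner membrane, fell with LPS at 4 h (log2 fold change -2.47 ± 0.09, adjusted p = 3.8e-21) and rose with dexamethasone alone at both times (0.79 ± 0.07 and 0.85 ± 0.08). The bicarbonate importer Slc4a7 rose with LPS at 4 h, to 519 ± 14.1 CPM against 127 ± 3.35 CPM in untreated cells (log2 fold change 2.03 ± 0.06, adjusted p = 5.1e-28), and fell with dexamethasone in all 4 settings. Slc12a9 rose with LPS at 4 h (2.24 ± 0.08) and fell with dexamethasone under LPS (-1.42 ± 0.08), at 53.1 ± 4.71 CPM with both agents, 142 ± 12.6 CPM with LPS and 30.2 ± 3.03 CPM in untreated cells.

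Dexamethasone went with large differences in 2 low ion carriers. Slc24a3, a potassium-dependent sodium-calcium exchanger, had 22.8, 22.9 and 21.95 CPM with dexamethasone and 11.3, 9.31 and 7.60 CPM in untreated cells at 4 h (log2 fold change 1.25 ± 0.14, adjusted p = 2.2e-09). At 24 h the direction was the opposite, with 1.58, 1.25 and 2.01 CPM with dexamethasone and 6.29, 5.63 and 6.40 CPM in untreated cells (log2 fold change -1.91 ± 0.20, adjusted p = 3.1e-10). With both agents at 24 h it was at 2.88, 2.28 and 1.97 CPM, against 0.413, 0.312 and 0.347 CPM with LPS (22 counts in sum). Slc4a8, a sodium-driven chloride-bicarbonate exchanger, lies under the mean of 5 CPM over the groups compared that was asked of named genes, and was chosen after its values were seen. It averaged 9.48 CPM with LPS plus dexamethasone at 24 h and 1.57 CPM over the other groups. It thus met the 2 CPM rule only through that group, so its values are a description and no test is given. It had 9.58, 10.5 and 8.41 CPM with LPS plus dexamethasone and 0.367, 0.0521 and 0.248 CPM with LPS (14 counts in sum), and 5.06, 5.04 and 4.58 CPM with dexamethasone and 0.226, 0.235 and 0.313 CPM in untreated cells, all at 24 h. Both groups with dexamethasone lay above both groups without it. The class of 23 as a whole held 4 members that rose and 9 that fell with LPS at 24 h, and 6 and 14 at 4 h. Of all genes, 29.7% rose and 30.6% fell at 24 h, and 34.2% and 38.8% at 4 h. The class medians were -0.17 and -0.55, against -0.02 and -0.07 for all genes.

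Slc28a2 stood out among the carriers of vitamins, nucleosides and choline. It encodes CNT2, which takes up purine nucleosides and uridine with sodium. At 4 h it had 204, 261 and 231 CPM with LPS plus dexamethasone and 963, 875 and 940.03 CPM with LPS, and 86.6, 83.9 and 85.2 CPM with dexamethasone and 9.08, 10.1 and 8.70 CPM in untreated cells. Every group stood apart from the others. Dexamethasone raised it without LPS (log2 fold change 3.20 ± 0.08, adjusted p = 1.8e-27) and lowered it under LPS (log2 fold change -2.00 ± 0.06, adjusted p = 2.8e-24), and this difference passed the test (log2 difference -5.20 ± 0.10, adjusted p = 3.9e-30). At 24 h dexamethasone raised it both with LPS, to 318, 312 and 316 CPM against 58.01, 54.6 and 53.3 CPM with LPS alone, and without, to 109, 109 and 122 CPM against 22.4, 19.4 and 20.8 CPM in untreated cells. The log2 fold changes were 2.51 ± 0.07 and 2.44 ± 0.07. LPS raised it 99.6-fold at 4 h, the largest rise of a member in that comparison, and 2.65-fold at 24 h.

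The choline carrier Slc44a1 (CTL1) rose with LPS at 4 h and fell with it at 24 h. It averaged 804 ± 19.2 CPM in LPS and 154 ± 6.48 CPM in untreated cells at 4 h (log2 fold change 2.39 ± 0.05, adjusted p = 3.2e-30), and 99.1 ± 5.63 CPM in LPS and 147 ± 8.82 CPM in untreated cells at 24 h (log2 fold change -0.57 ± 0.05, adjusted p = 2e-11). Slc46a3, a lysosomal carrier of the folate-carrier family, had 3.95, 3.65 and 4.12 CPM in LPS at 24 h, against 81.6, 84.1 and 79.3 CPM in untreated cells (log2 fold change -4.38 ± 0.09, adjusted p = 1.9e-31). Dexamethasone raised it at 24 h with LPS (1.13 ± 0.11) and without (1.11 ± 0.06). The multivitamin carrier Slc5a6, which takes up biotin and pantothenate, fell with LPS at 4 h (log2 fold change -3.06 ± 0.20, adjusted p = 2.8e-16), and the value at 24 h did not pass the test (adjusted p = 0.62). The thiamine carrier Slc19a2 rose with dexamethasone under LPS at 4 h and fell at 24 h (log2 fold changes 1.33 ± 0.15 and -0.53 ± 0.13). The nucleobase carrier Slc43a3 fell with dexamethasone alone at 24 h, to 3.02 ± 0.388 CPM against 9.44 ± 1.27 CPM in untreated cells (log2 fold change -1.64 ± 0.14, adjusted p = 1e-12), and rose with dexamethasone under LPS, to 8.22 ± 0.326 CPM against 3.37 ± 0.563 CPM with LPS (log2 fold change 1.28 ± 0.14, adjusted p = 1.4e-09). The equilibrative nucleoside carriers Slc29a1 and Slc29a3, the second of them lysosomal, fell with LPS at 24 h (-0.89 ± 0.07 and -0.83 ± 0.07).

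**Figure D4:**
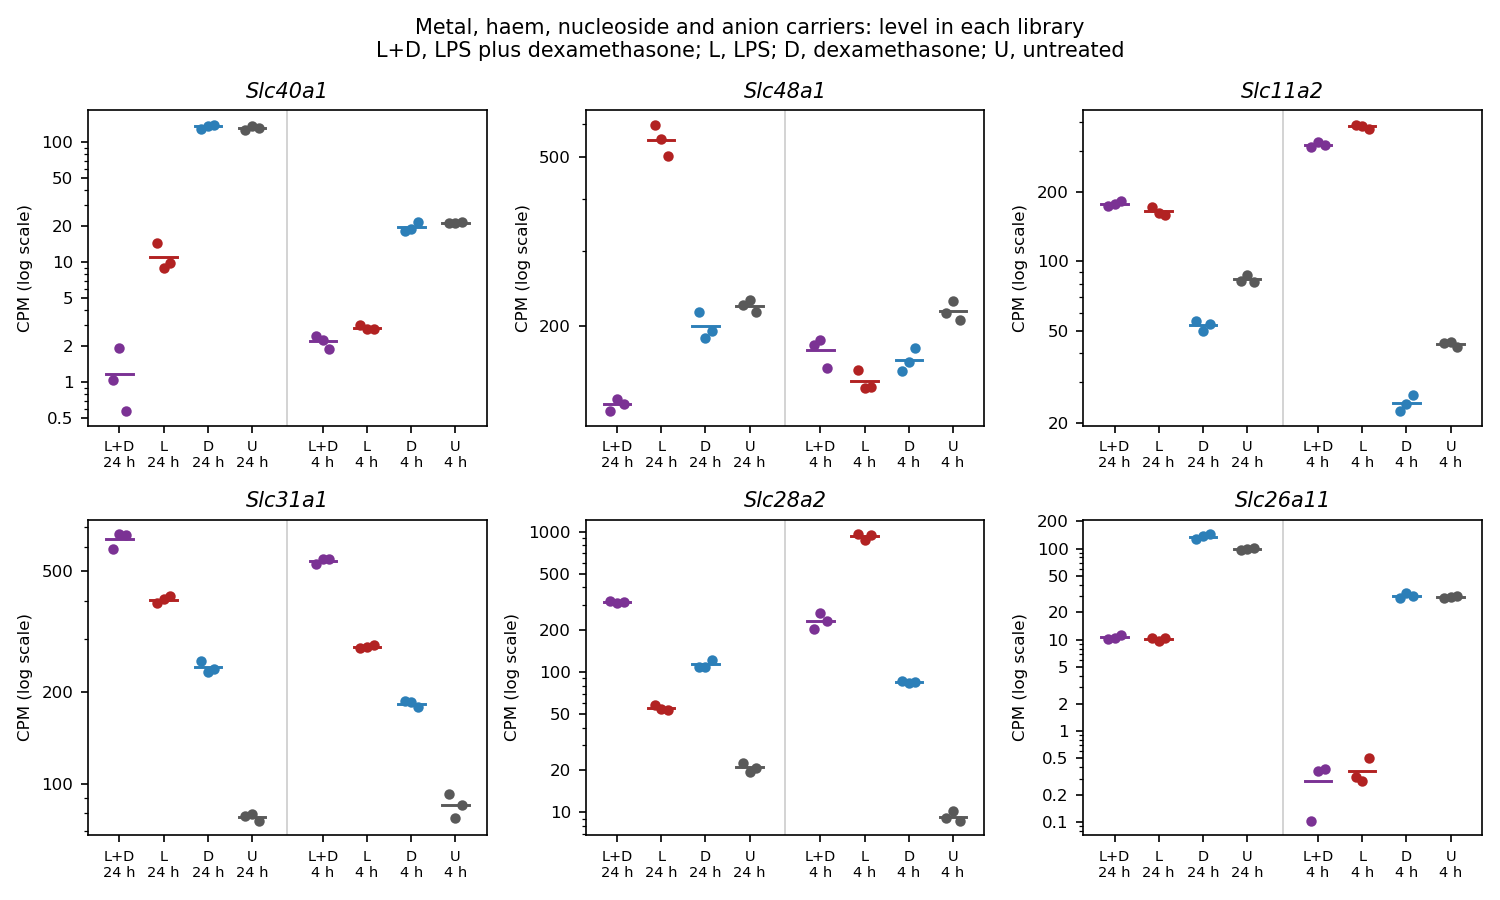
Level of 6 metal, haem, nucleoside and anion carriers in each library (y axis, CPM after TMM scaling, log scale) by treatment, with 24 h left of 4 h; points are libraries and bars are means of 3. Slc40a1 is lowest with LPS plus dexamethasone at 24 h, Slc31a1 rises with each agent, and Slc26a11 is at 0.285 to 0.500 CPM with LPS alone at 4 h.

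Among the 36 mitochondrial carriers, 19 rose and 5 fell with LPS at 24 h (median 0.19), while 12 rose and 19 fell at 4 h (median -0.24). Of all genes, 29.7% rose and 30.6% fell at 24 h (median -0.02), and 34.2% and 38.8% at 4 h (median -0.07). By library totals alone the counts at 24 h would be 12 and 9. Slc25a22, which imports glutamate into mitochondria, had 405, 446 and 422 CPM in LPS at 4 h, against 44.3, 40.8 and 36.6 CPM in untreated cells (log2 fold change 3.38 ± 0.09, adjusted p = 4.7e-23), and 171, 198 and 227 CPM with dexamethasone added (log2 fold change -1.09 ± 0.08, adjusted p = 4.7e-12). The dicarboxylate carrier Slc25a10, which exchanges malate and succinate for phosphate, was highest with both agents at each time. It had 292, 288 and 302 CPM with LPS plus dexamethasone at 24 h and 176, 162 and 161 CPM with LPS (log2 fold change 0.82 ± 0.07, adjusted p = 2.8e-11), and 177, 166 and 155 CPM with LPS plus dexamethasone and 75.3, 73.9 and 60.6 CPM with LPS at 4 h (log2 fold change 1.24 ± 0.08, adjusted p = 5.1e-15). Without LPS, dexamethasone lowered it at 24 h (-0.38 ± 0.08). The aspartate-glutamate carrier Slc25a13 also differed in sign: at 24 h it rose with dexamethasone under LPS (35.6 ± 4.12 CPM against 11.7 ± 0.418 CPM with LPS, log2 fold change 1.61 ± 0.09, adjusted p = 7.8e-17) and fell with dexamethasone alone (14.9 ± 1.12 CPM against 37.4 ± 3.39 CPM in untreated cells, log2 fold change -1.33 ± 0.09, adjusted p = 3e-15). Slc25a25, which carries ATP-magnesium and phosphate, fell with dexamethasone alone at both times (-1.61 ± 0.09 and -1.34 ± 0.08). The ADP/ATP exchanger Slc25a5 averaged 552 ± 3.11 CPM with both agents, 446 ± 16.04 CPM with LPS and 233 ± 16.4 CPM in untreated cells at 24 h. The citrate carrier Slc25a1 rose with LPS at 24 h (0.93 ± 0.07) and fell with dexamethasone under LPS (-0.48 ± 0.07). With dexamethasone under LPS at 24 h, 1 mitochondrial carrier rose and 2 fell by 2-fold or more, which is 3 of 36 where 12.5% of all genes passed.

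The remaining classes are described together. Among the 10 members for organic anions, cations and drugs 0 rose and 8 fell with LPS at 4 h (median log2 fold change -1.09, against -0.07 for all genes). In that comparison 34.2% of all genes rose and 38.8% fell. Of the 21 carriers of nucleotide sugars and relatives, which supply the Golgi with sugar donors, 2 rose and 14 fell with LPS at 4 h, and none passed 2-fold in either direction with dexamethasone, with or without LPS, at either time. Of all genes, between 10.6% and 14% passed in those 4 comparisons. Among lipid carriers, the fatty acid transport protein Slc27a1 fell with LPS and with dexamethasone, to 58.5 ± 3.74 CPM with both agents at 24 h, against 128 ± 14.4 CPM with LPS, 163 ± 11.05 CPM with dexamethasone and 306 ± 25.3 CPM in untreated cells. Slc27a3 was high in 1 group, LPS plus dexamethasone at 24 h: 15.1, 11.3 and 14.3 CPM against 0.918, 0.781 and 0.645 CPM with LPS, while the other 7 groups averaged 0.627 to 1.28 CPM. It met the 2 CPM rule only through that group, so its difference there is a description and no test is given. The dicarboxylate carrier Slc13a3, which takes up succinate and citrate-cycle intermediates with sodium, rose with LPS and with dexamethasone at both times, to 52.8 ± 5.98 CPM with both agents at 4 h against 33.2 ± 4.62 CPM with LPS and 8.44 ± 1.65 CPM in untreated cells. The creatine carrier Slc6a8 fell in the same comparisons, to 22.9 ± 0.933 CPM with both agents at 24 h against 44.95 ± 2.59 CPM with LPS and 123 ± 7.13 CPM in untreated cells. Slc22a4, which carries ergothioneine, had 1.78, 1.55 and 1.04 CPM with both agents and 12.2, 9.48 and 9.63 CPM with LPS at 24 h (log2 fold change -2.84 ± 0.24, adjusted p = 2.9e-12). The scaffold gene Slc9a3r1 rose with dexamethasone alone at 4 h, to 221 ± 10.9 CPM against 66.3 ± 3.01 CPM in untreated cells (log2 fold change 1.74 ± 0.06, adjusted p = 2.4e-24), and with LPS at 4 h (1.90 ± 0.06).

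The dexamethasone response could be followed over 4 comparisons that share no library: under LPS and without it, at 24 h and at 4 h. Called higher in all 4 were 10 members (5.62%), against 3.63% of all genes tested and 4.63% of those that average 2 CPM. They included Slc31a1, Slc31a2, Slc36a1, Slc43a2, Slc6a12, Slc13a3, the sialic acid exporter Slc17a5 and Slc35e1. Called lower in all 4 were 22 members (12.4%), against 4.94% of all genes and 6.46% of those that average 2 CPM. Among these were the glucose and lactate carriers Slc2a1, Slc37a2, Slc16a1 and Slc16a3, the amino acid carriers Slc7a1, Slc7a5, Slc6a6 and Slc15a3, the zinc carriers Slc30a1, Slc30a4 and Slc39a10, the phosphate carrier Slc20a1, the chloride-bicarbonate exchanger Slc4a2 and the folate carrier Slc46a1. At 24 h, 28 members (15.7%) were called in opposite directions under LPS and without it, against 8.42% of all genes and 10.9% of those that average 2 CPM. At 4 h these were 19 members (10.7%), against 7.69% and 10.1%. Between the times under LPS, 24 members (13.5%) were called in opposite directions, against 6.70% of all genes and 8.74% of those that average 2 CPM. The 21 members called higher at both times made up 41.2% of those higher at 24 h and 42.0% of those higher at 4 h, and the 32 called lower at both made up 54.2% and 53.3%. The same shares over all genes tested were near these, at 44.0% and 38.7% for higher and 52.8% and 47.0% for lower.

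**Figure D5:**
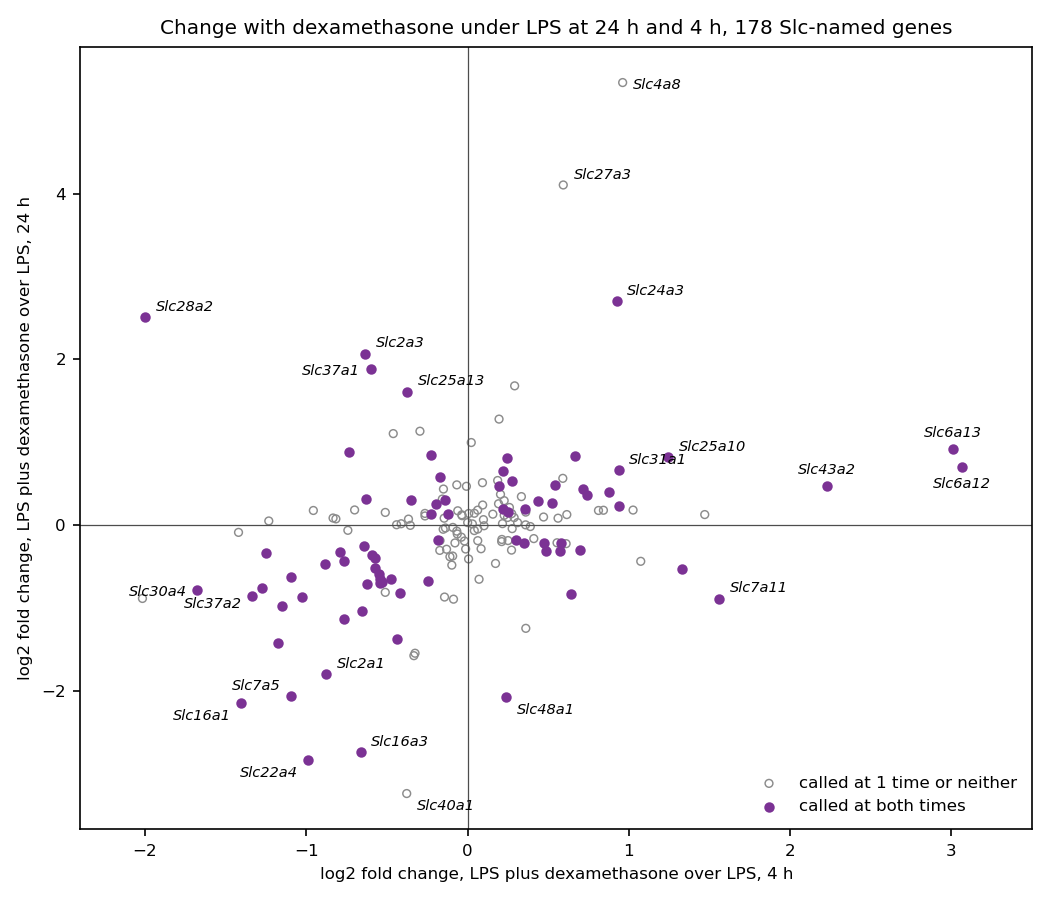
Log2 fold change of LPS plus dexamethasone over LPS at 4 h (x axis) and 24 h (y axis) for the 178 Slc-named genes; filled points were called at both times. Slc28a2, Slc2a3, Slc37a1 and Slc25a13 lie in the upper left, lower at 4 h and higher at 24 h, and Slc7a11 lies in the lower right.

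Whether the effects differed was tested directly by interaction terms. The dexamethasone effect with LPS was above the effect without it for 49 members and below it for 53 at 24 h, where 20.5% and 17.7% of all genes were called (38.2% in either direction). At 4 h the counts were 50 and 44 members, where 20.8% and 17.9% of all genes were called (38.7% in either), or 79 and 22 members by library totals. The LPS effect at 24 h was above that at 4 h for 91 members and below it for 52, where 30.8% and 30.5% of all genes were called (61.3% in either), or 123 and 36 members by library totals. The dexamethasone effect under LPS was higher at 24 h than at 4 h for 53 members and lower for 60, where 19% and 19.8% of all genes were called (38.8% in either), or 41 and 79 members by library totals. Without LPS it was higher for 40 and lower for 36, where 13.8% and 16.8% of all genes were called (30.7% in either).

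Solute carrier genes also differed between the times without any agent. Untreated cells at 24 h against 4 h had 49 members higher and 73 lower, where 30.6% and 30.4% of all genes were called (60.9% in either direction). The neutrophil markers were also lower at 24 h in this comparison, and their part in these differences was not tested. The 4 largest falls were those of Slc7a5 (-3.53 ± 0.18), Slc7a8 (-2.67 ± 0.07), Slc13a3 (-2.71 ± 0.30) and Slc7a1 (-2.49 ± 0.09), as log2 fold changes of 24 h over 4 h. Slc40a1 (2.62 ± 0.11), Slc26a11 (1.75 ± 0.07), Slc46a3 (1.69 ± 0.07), Slc6a12 (1.64 ± 0.31) and Slc2a6 (1.47 ± 0.08) were higher at 24 h. Transporters with names other than Slc were taken from a list of 30 genes, of which 28 were tested. With LPS at 24 h, 12 rose and 10 fell, where 29.7% of all genes rose and 30.6% fell. With dexamethasone under LPS at 24 h, 6 rose and 11 fell, where 21% and 22.6% of all genes did. The list medians were 0.20 and -0.08, against -0.02 and 0.00 for all genes.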

How the data were processed

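The authors deposited 1 table of whole-number counts per gene for 24 libraries, made per the file headers with featureCounts 2.0.0 on read pairs, without strand, by summing the exons of GENCODE M29, with that tool's defaults for reads on several places or genes. The only other column used is the deposited summed exon length of each gene. STAR and the builds GRCm38 and mm10 come from the submitters' processing notes, while M29 annotates GRCm39: only 4 of the 178 members start at the same base in GENCODE M21 (GRCm38), so positions are as the table gives them and promoters are on GRCm38.p6. Symbols were taken from M21 by Ensembl identifier (52081 of 55357 named). Of the members, 53 share exon bases with another gene, and for Slc39a7, Slc33a1, Slc25a35 and Slc15a3, among others, the share is over 25%.

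The model, with 1 coefficient for each of the 8 groups, used every library and was fitted in edgeR 4.0.16 (R 4.3.3, limma 3.58.1) after filterByExpr and TMM scaling, with robust quasi-likelihood F tests (16 residual degrees of freedom). Its common biological coefficient of variation was 6.29%. The SE is the log2 fold change over the root of F, and is unreliable for genes with few counts. The procedure was tested on simulated counts. Between libraries of a group the chi-square per gene was at least 3.22, which cannot show whether they came from separate mice or cultures. Each library was counted as a sample of its own. The text names genes from a fixed panel of 75, of which 70 are members, the 5 largest rises and falls of each treatment comparison (adjusted p under 0.05, 2-fold, at least 5 CPM, no overlap), 3 of each per interaction, the 2 highest per kilobase in each class and the 6 nearest the level threshold. It uses most of the resulting 93 and adds Slc4a8. Members, classes, panel and lists were chosen with earlier results of these data known. The class of Slc4a1ap was corrected, and the shares among genes that average 2 CPM were added, after the files were seen. Alternatives were RLE scaling, library totals alone, no filter, DESeq2 1.42.0, fits of only the groups compared, a replicate block and leaving out each library.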

Additional observations from a re-analysis of the deposited data

Results flagged for a closer look

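The effects below differed between 2 settings by a test of the difference itself (edgeR's quasi-likelihood test of the interaction, adjusted p under 0.05). Values are log2 differences, and for each test the 3 highest and 3 lowest with a mean of at least 5 CPM are given. Of the 178 members, 102 passed this test for dexamethasone with against without LPS at 24 h, so these are extremes of many.

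For the dexamethasone effect with LPS minus that without LPS at 24 h, Slc25a13 stood at 2.94, Slc43a3 at 2.92 and Slc37a1 at 1.70. At the other end were Slc40a1 at -3.28, Slc48a1 at -1.91 and Slc16a3 at -1.89. For the same difference at 4 h, Slc16a10 stood at 2.20, Slc25a25 at 1.43 and Slc25a10 at 1.35, and Slc28a2 at -5.20, Slc12a9 at -1.63 and Slc30a4 at -1.40. Slc16a10 and Slc28a2 had called changes of opposite sign with and without LPS.

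For the LPS effect at 24 h minus that at 4 h, Slc6a13 stood at 5.44, Slc43a2 at 3.13 and Slc26a11 at 3.04, and Slc28a2 at -5.23, Slc24a3 at -4.27 and Slc2a6 at -3.26. For the dexamethasone effect under LPS at 24 h minus that at 4 h, Slc28a2 stood at 4.51, Slc2a3 at 2.70 and Slc37a1 at 2.49, and Slc7a11 at -2.45, Slc6a12 at -2.37 and Slc48a1 at -2.32. For the dexamethasone effect without LPS at 24 h minus that at 4 h, Slc9a9 stood at 1.16, Slc39a8 at 1.13 and Slc17a9 at 1.08, and Slc24a3 at -3.16, Slc7a11 at -1.88 and Slc9a3r1 at -1.43.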

How the results depend on the processing

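Of 188 log2 fold changes and differences of single members given here, no called value changed sign under any alternative run. By library totals alone, 3 of them lost their call (Slc16a1 and Slc30a1 with LPS at 4 h and Slc37a4 with LPS at 24 h) and 3 gained one (Slc11a2 with dexamethasone under LPS at 24 h, and Slc2a6 and Slc39a14 with it at 4 h). Scaling by library totals alone was the only alternative that moved a count of members by over 1.5 times. It gave 29 members higher and 90 lower by 2-fold with LPS at 4 h, and 85 higher, 16 higher by 2-fold and 9 lower by 2-fold with dexamethasone under LPS at 4 h. For the dexamethasone effect with minus without LPS at 4 h it gave 79 higher and 22 lower, and 23 and 6 by 2-fold. For the LPS effect at 24 h minus at 4 h it gave 82 higher and 19 lower by 2-fold. It moved the share of higher among called members to 17.7% (with TMM 37.9%) for LPS at 4 h, to 40.9% (with TMM 55.7%) for LPS at 24 h (54 higher, 78 lower) and to 65.4% (with TMM 45.5%) for dexamethasone under LPS at 4 h. That share became 78.2% (with TMM 53.2%) for the dexamethasone effect with minus without LPS at 4 h, 77.4% (with TMM 63.6%) for the LPS effect between the times and 34.2% (with TMM 46.9%) for the dexamethasone effect under LPS between the times. Leaving out single libraries changed 2 single-gene calls, those of Slc39a8 and Slc11a2 named above. In DESeq2, 2 single-gene results gained a call (Slc11a2 and Slc7a11) and none lost one.

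Same-numbered libraries did not deviate together (correlations between -0.0533 and 0.0392), so the numbers were not taken as pairs. With a replicate block, 71 members rose and 57 fell with LPS at 24 h, and no single-gene call given here changed. Counts of 10 higher and 22 lower in all 4 dexamethasone comparisons ranged over the alternatives from 8 to 13 and from 19 to 23. Genes with few counts, such as Slc26a11 and Slc6a13 at 4 h, limit the precision of their fold changes.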
